A study of Homo sapiens with 6 samples.

Results

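The genes examined here are PLAU, PLAT, PLAUR, SERPINE2 and SERPINB2, a list of 2 plasminogen activators, the cell-surface receptor of 1 of them, and 2 serpin inhibitors. They were picked by gene symbol from an mRNA table of 60623 features, and all 5 were found once each and had counts in every mRNA library. Other inhibitors of these activators are known, and the list does not hold all of them. MRC5 cells, a line of human lung fibroblasts labelled wild type, were collected at 48 h after 1 of 3 treatments: DMSO as the control, TGF-β1, or luteolin, a plant flavonoid, together with TGF-β1 (the combined treatment, or luteolin + TGF-β1). The labels give no doses and do not say whether DMSO was also added to the other cultures. Each treatment was sequenced once as mRNA and once as small RNA, giving 6 libraries. There is therefore no replicate, every ratio compares libraries, and each interval is a 95% interval for counting error alone.

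The plasminogen system works through a chain of proteases outside the cell. Urokinase, the product of PLAU, and tissue-type plasminogen activator, the product of PLAT, cut the zymogen plasminogen into plasmin, a broad protease that dissolves fibrin, degrades matrix proteins and activates matrix metalloprotease zymogens and latent growth factors. The receptor encoded by PLAUR is held to the membrane by a lipid anchor and concentrates urokinase at the cell surface. SERPINE2 encodes protease nexin, a secreted serpin that traps thrombin, urokinase and tissue-type activator. SERPINB2 encodes a serpin that inhibits the same activators and stays mostly inside the cell. In the lung, plasmin made by these activators is known for clearing the fibrin and provisional matrix that follow injury.

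Total mRNA counts were 17876657 in control, 14609132 after TGF-β1 and 15563805 after the combined treatment. Levels below are in CPM, which are counts brought to a common library size by total and by edgeR's TMM factors. These factors were 1.11, 1.02 and 0.879. All 9 fibroblast markers that were looked up were above 1 CPM, with sums of 20327, 30449 and 52715 CPM in the same order. COL1A1 and COL1A2, the type I collagen genes, made up 12176, 23095 and 44569 CPM of these sums, and the other 7 markers 8151, 7354 and 8146 CPM. DCN, at 1170, 168 and 760 CPM, LUM, at 222, 31.5 and 119 CPM, and THY1, at 613, 458 and 481 CPM, were highest in control. The part of such differences in the results was not tested. None of 4 epithelial, 4 endothelial and 5 leukocyte markers reached 1 CPM in any library, and the sum over each of these lists was at most 0.536 CPM. These are bulk samples, in which fewer cells that express a gene and less RNA per cell cannot be told apart. Higher and lower are used of genes that differed by 2-fold or more with an interval that excluded equality, and such genes are said to be called.

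The order of the 5 transcripts, per transcript length, differed between the libraries. PLAU was the most abundant of them in control and fell at each step, from control to TGF-β1 and from TGF-β1 to luteolin + TGF-β1. SERPINE2 was the least abundant in control, rose at each step and was the most abundant in the luteolin + TGF-β1 library. SERPINB2 fell at each step and PLAT fell over both steps together, while PLAUR fell at the second step and was not called at the first.

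**Figure D1:**
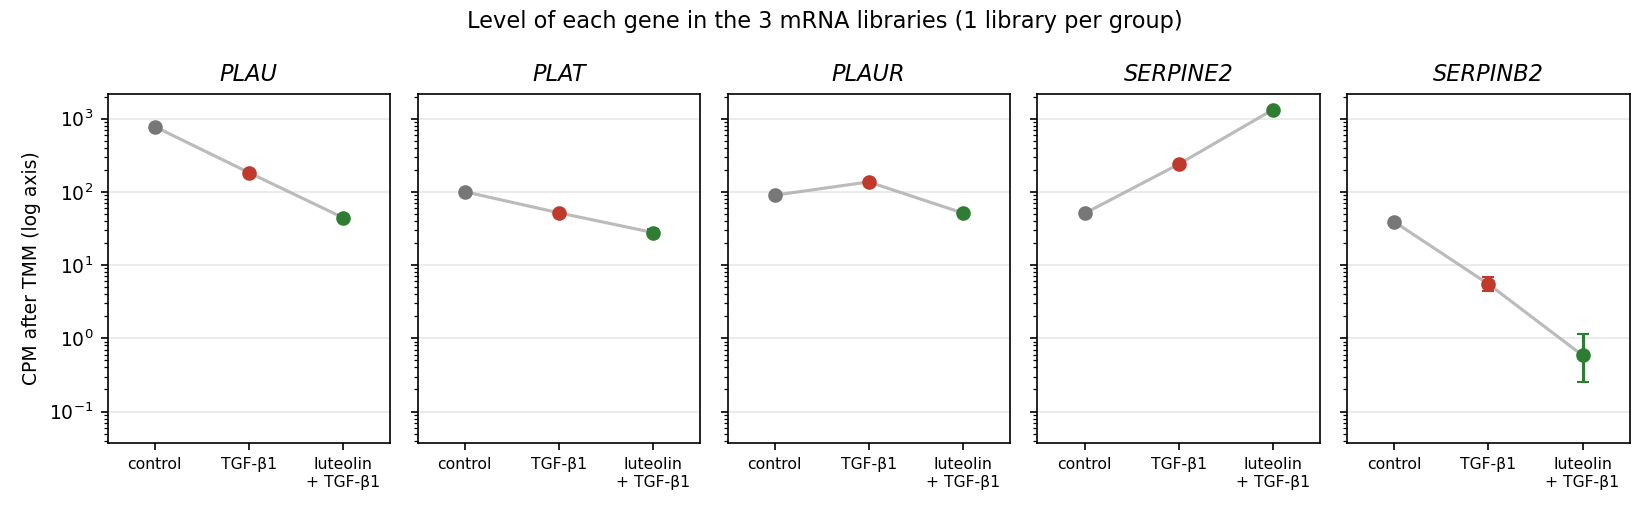
Each panel plots 1 gene in each mRNA library as CPM after TMM on a shared log axis; points are single libraries and bars are exact 95% Poisson intervals, mostly smaller than the points. PLAU went from 777 to 44.5 CPM, SERPINE2 from 50.7 to 1319 CPM and SERPINB2 from 38.8 to 0.585 CPM, while PLAUR was highest in the TGF-β1 library.

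Promoter sequence of PLAU, SERPINB2, PLAUR and SERPINE2 is shown because PLAU and SERPINB2 fell and SERPINE2 rose between the same libraries. PLAT was not searched. RefSeq windows on GRCh38.p14 of 300 bases, from 250 before to 50 after a start site, were searched on both strands for 4 motifs. The motif that AP-1 binds was searched as TGANTCA. The SMAD-like element, named for the factors that carry TGF-β signals, was searched as CAGACA. An E-box, which helix-loop-helix factors bind, was searched as CACGTG. The TATA box, which helps place the start of transcription, was searched as TATAAA. Only windows that hold at least 1 match are written below, along the strand of the gene, with matches in capitals and none overlapping. Windows of PLAU and SERPINE2 without a match are described after them. The PLAU window is chr10:73910360-73910659 on the plus strand, the SERPINB2 window chr18:63887455-63887754 on the plus strand, the PLAUR window chr19:43670120-43670419 on the minus strand, and the SERPINE2 window chr2:224031429-224031728 on the minus strand.
SERPINB2: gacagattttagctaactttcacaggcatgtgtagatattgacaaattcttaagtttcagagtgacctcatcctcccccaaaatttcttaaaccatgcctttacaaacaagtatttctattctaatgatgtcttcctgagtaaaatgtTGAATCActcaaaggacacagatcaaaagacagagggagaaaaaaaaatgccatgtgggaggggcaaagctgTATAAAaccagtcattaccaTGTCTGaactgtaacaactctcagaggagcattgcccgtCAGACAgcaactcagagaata
PLAUR: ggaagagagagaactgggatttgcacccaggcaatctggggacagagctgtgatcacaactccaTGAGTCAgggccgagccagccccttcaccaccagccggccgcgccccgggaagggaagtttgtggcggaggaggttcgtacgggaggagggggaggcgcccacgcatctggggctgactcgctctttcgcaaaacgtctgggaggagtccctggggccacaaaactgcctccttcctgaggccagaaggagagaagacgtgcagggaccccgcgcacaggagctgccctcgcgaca
PLAU: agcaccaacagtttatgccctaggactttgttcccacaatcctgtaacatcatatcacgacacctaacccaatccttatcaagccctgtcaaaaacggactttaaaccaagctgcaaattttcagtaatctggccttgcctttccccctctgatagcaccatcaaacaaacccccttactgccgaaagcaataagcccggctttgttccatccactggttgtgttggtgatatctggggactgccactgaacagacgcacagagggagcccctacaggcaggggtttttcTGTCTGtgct
SERPINE2: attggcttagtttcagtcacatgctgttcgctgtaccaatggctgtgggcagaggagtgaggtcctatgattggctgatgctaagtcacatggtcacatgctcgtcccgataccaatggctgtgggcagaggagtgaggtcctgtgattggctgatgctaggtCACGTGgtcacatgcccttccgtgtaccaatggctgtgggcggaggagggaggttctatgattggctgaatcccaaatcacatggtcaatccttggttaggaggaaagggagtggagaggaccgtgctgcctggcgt

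The SERPINB2 window held the AP-1 motif at position -102, counted from the start site to the first base of the match, the TATA motif at -30, and the SMAD-like element at -10 on the opposite strand and at 29. The PLAUR window held the AP-1 motif at -186. The PLAU window held a SMAD-like element at 40 on the opposite strand, and the SERPINE2 window the E-box at -87. Among 35116 RefSeq promoter windows, 7.71% held the AP-1 motif, 16.9% the SMAD-like element, 7.26% the E-box and 11.5% the TATA motif. GC content was 39% in the SERPINB2 window, which held 1 CpG, and 64% in the PLAUR window, which held 18, beside a median of 58.7% and 14 over all windows. PLAU and SERPINE2 each have another RefSeq start site, at chr10:73910882-73911181 and chr2:224038591-224038890, whose windows had 70% and 73.7% GC and no match. The count table does not tell which start site was used, and a match describes letters only.

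PLAU (ENSG00000122861) is a protein-coding gene on chromosome 10 from 73908832 to 73917494 on GRCh38. Its counts were 15460 in control, 2738 with TGF-β1 and 608 after the combined treatment. These are 777, 183 and 44.5 CPM. The 3 Poisson intervals were apart, at 765 to 789, 177 to 190.4 and 41.0 to 48.1 CPM. PLAU was 4.24-fold lower with TGF-β1 than in control (log2 ratio -2.08, interval -2.14 to -2.02). Luteolin + TGF-β1 lay another 4.13-fold below TGF-β1 alone (log2 ratio -2.04, interval -2.17 to -1.92) and 17.5-fold below control (log2 ratio -4.13, interval -4.25 to -4.01). By the deposited TPM, which are per transcript length, PLAU was the 99th most abundant feature of the control library, the 571st with TGF-β1 and the 2422nd with luteolin + TGF-β1. A noncoding gene, C10orf55, overlaps PLAU in the RefSeq annotation and had 31, 8 and 0 counts in the same order. Reads of overlapping genes cannot be told apart here, since the strand setting of the counting is not given in the sources used here.

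PLAT (ENSG00000104368), on chromosome 8 from 42174718 to 42207565, encodes the other activator. It had 1998 counts in control, 773 after TGF-β1 and 381 after the combined treatment, or 100.4, 51.8 and 27.9 CPM. The order of the libraries was the same as for PLAU, with smaller distances and with intervals apart. With TGF-β1 the log2 ratio over control was -0.96 (interval -1.08 to -0.83), short of 2-fold. From TGF-β1 to luteolin + TGF-β1 it was -0.89 (interval -1.08 to -0.72), again short of 2-fold. Scaling by total counts puts both past it, at -1.08 and -1.11. Over both steps PLAT was 3.60-fold lower (log2 ratio -1.85, interval -2.01 to -1.69), which is called under each of the 4 scalings.

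PLAUR (ENSG00000011422), the urokinase receptor gene, lies on chromosome 19 from 43646095 to 43670169. It had 1794 counts in control, 2039 after TGF-β1 and 704 after the combined treatment, which are 90.1, 137 and 51.5 CPM. It was the only gene of the list that was highest in the TGF-β1 library. The log2 ratio of TGF-β1 over control was 0.60 (interval 0.51 to 0.69), a ratio of 1.52 that is not called. Against TGF-β1 alone, luteolin + TGF-β1 was 2.65-fold lower (log2 ratio -1.41, interval -1.53 to -1.28). Against control it lay at -0.81 (interval -0.94 to -0.68), which is not called with TMM and is called with total counts, at -1.15. RefSeq also places a pseudogene, RN7SL368P, inside PLAUR, with 3, 3 and 0 counts.

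SERPINE2 (ENSG00000135919), the protease nexin gene, spans chromosome 2 from 223975045 to 224039286. Its counts were 1010 in control, 3555 with TGF-β1 and 18042 after the combined treatment. In CPM these are 50.7, 238 and 1319, in the opposite order to the activators. SERPINE2 was 4.69-fold higher with TGF-β1 than in control (log2 ratio 2.23, interval 2.13 to 2.33). Luteolin + TGF-β1 was a further 5.54-fold above TGF-β1 alone (log2 ratio 2.47, interval 2.42 to 2.52) and 26.0-fold above control (log2 ratio 4.70, interval 4.61 to 4.79). Of 13859 eligible genes, those with at least 1 CPM in a library compared, 40 had a higher ratio of luteolin + TGF-β1 over control than SERPINE2. By TPM it moved from the 5726th to the 1451st and then to the 252nd most abundant feature.

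SERPINB2 (ENSG00000197632) is on chromosome 18 from 63887705 to 63903888, within a cluster of clade B serpin genes. It had 773 counts in control, 82 after TGF-β1 and 8 after the combined treatment, or 38.8, 5.49 and 0.585 CPM. The last of these rests on 8 counts, whose exact interval is 3.45 to 15.8 counts. SERPINB2 was 7.07-fold lower with TGF-β1 than in control (log2 ratio -2.82, interval -3.17 to -2.49). After the combined treatment it was 9.39-fold lower than after TGF-β1 alone (log2 ratio -3.23, interval -4.49 to -2.19), and the interval of that fold runs from 4.55 to 22.5. Over both steps it was 66.4-fold lower (log2 ratio -6.05, interval -7.27 to -5.07), and 17 of 13859 eligible genes had a lower ratio. Both serpins of the list were thus called at each step, in opposite directions.

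**Figure D2:**
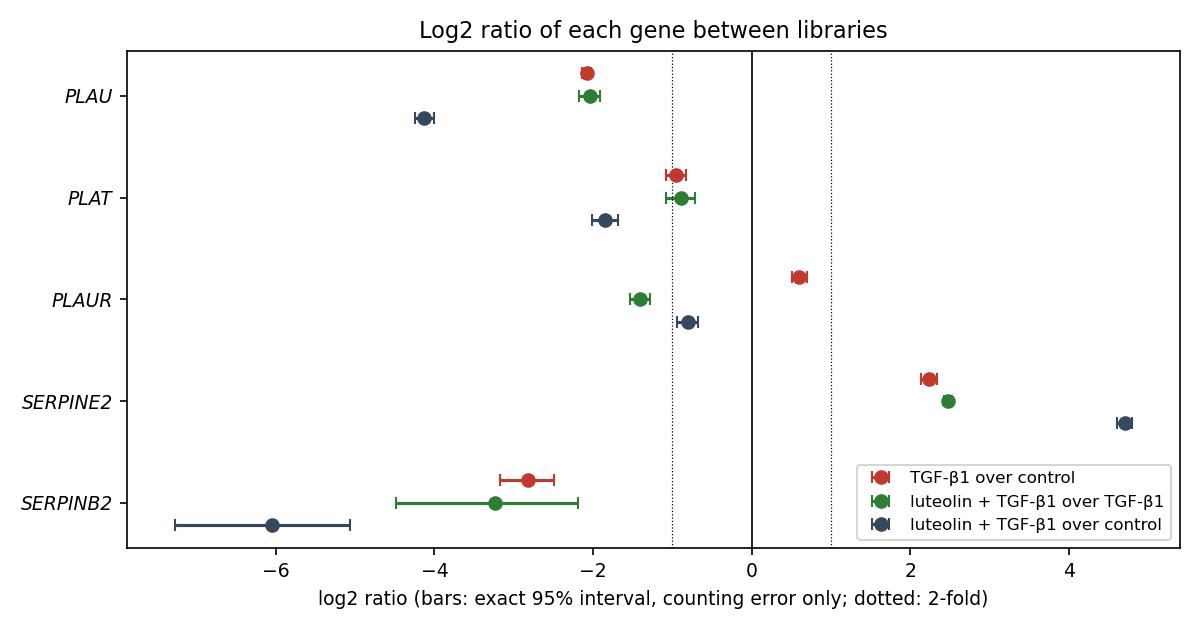
The log2 ratio of each gene is plotted for TGF-β1 over control, luteolin + TGF-β1 over TGF-β1, and luteolin + TGF-β1 over control; bars are exact 95% intervals for counting error and dotted lines mark 2-fold. PLAU, PLAT and SERPINB2 lie left of 0 and SERPINE2 right of 0 in all 3 comparisons, while PLAUR lies at 0.60, -1.41 and -0.81.

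As counts over the list, 1 of the 5 genes was higher and 2 were lower with TGF-β1 than in control, beside 10.4% of 13416 eligible genes called in either direction (3.7% higher and 6.67% lower). With luteolin + TGF-β1 against TGF-β1 alone, 1 was higher and 3 were lower, beside 27.3% of 13703 genes (12.5% higher and 14.8% lower). With luteolin + TGF-β1 against control, 1 was higher and 3 were lower, beside 29.5% of 13859 genes (12.4% higher and 17.1% lower). The list's median log2 ratio was -0.96, -1.41 and -1.85 in these comparisons, and that of all eligible genes was -0.01, -0.04 and -0.08. The first 2 comparisons share the TGF-β1 library, and each shares a library with the third, so they are not independent of each other. The genes were listed with earlier results of these data known, and nothing is read from the counts beyond their size.

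**Figure D3:**
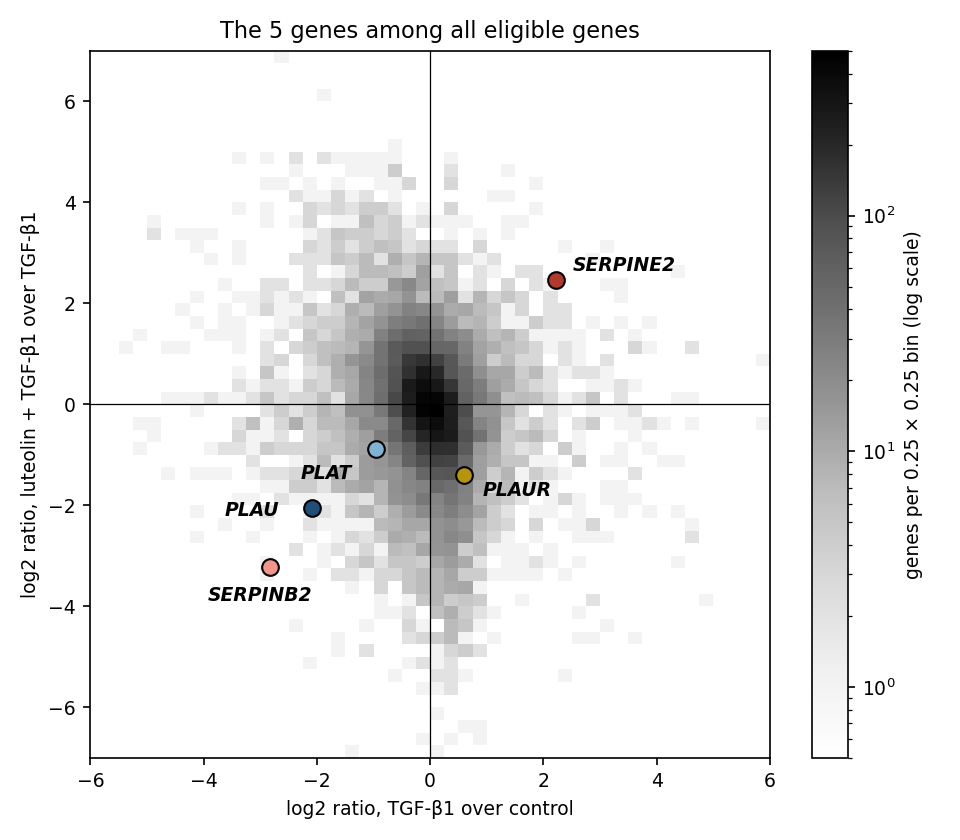
The log2 ratio of TGF-β1 over control (x axis) is plotted against that of luteolin + TGF-β1 over TGF-β1 (y axis). Grey bins of 0.25 count 13984 genes, a few of which lie beyond the axes and are not seen, and coloured points are the 5 genes. The TGF-β1 library enters both axes. PLAU, PLAT and SERPINB2 lie in the lower left quadrant, SERPINE2 in the upper right at 2.23 and 2.47, and PLAUR in the lower right.

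Levels of different genes can be set beside each other only per length, and the deposited TPM were used for that. In control, PLAU had 1080 TPM, against 82.9 for PLAUR, 58.1 for SERPINB2, 58.1 for PLAT and 23.2 for SERPINE2. PLAT and SERPINB2 did not differ beyond counting error in control, with intervals of 55.6 to 60.7 and 54.1 to 62.3 TPM. With TGF-β1 the order was PLAU at 247 TPM, PLAUR at 122, SERPINE2 at 106, PLAT at 29.0 and SERPINB2 at 7.96. With luteolin + TGF-β1 SERPINE2 led at 505 TPM, followed by PLAU at 51.7, PLAUR at 39.6, PLAT at 13.5 and SERPINB2 at 0.732. Apart from the tie in control, neighbours in each order had intervals that did not overlap.

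Ratios of 2 genes within a library do not depend on how the libraries are scaled. The SERPINE2 to PLAU ratio, in TPM, was 0.0215 in control (interval 0.0202 to 0.0229), 0.427 with TGF-β1 (0.407 to 0.449) and 9.77 with luteolin + TGF-β1 (9.01 to 10.6). The ratio was thus 19.9 times as large with TGF-β1 as in control (interval 18.3 to 21.6), and 22.9 times as large with luteolin added as with TGF-β1 alone (20.8 to 25.2). From control to luteolin + TGF-β1 it differed by a factor of 454 (interval 409 to 504). This pair is not a measure of all activators against all inhibitors, and mRNA levels do not give protease activity.

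The activators and the receptor also changed relative to each other. PLAU exceeded PLAT by a TPM ratio of 18.6 in control, 8.51 with TGF-β1 and 3.83 after the combined treatment. That ratio was 2.18-fold lower with TGF-β1 than in control (interval 1.99 to 2.40) and 2.22-fold lower again with luteolin added (interval 1.90 to 2.59). PLAU exceeded its receptor gene PLAUR by 13.0 in control, 2.03 with TGF-β1 and 1.31 after the combined treatment. Here the step from control to TGF-β1 was 6.42-fold (interval 5.95 to 6.92) and the step to luteolin + TGF-β1 1.55-fold (interval 1.37 to 1.76). Between the serpins, the SERPINE2 to SERPINB2 ratio was 0.4 in control, 13.3 with TGF-β1 and 690.1 after the combined treatment, the last with an interval of 350.2 to 1599.

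**Figure D4:**
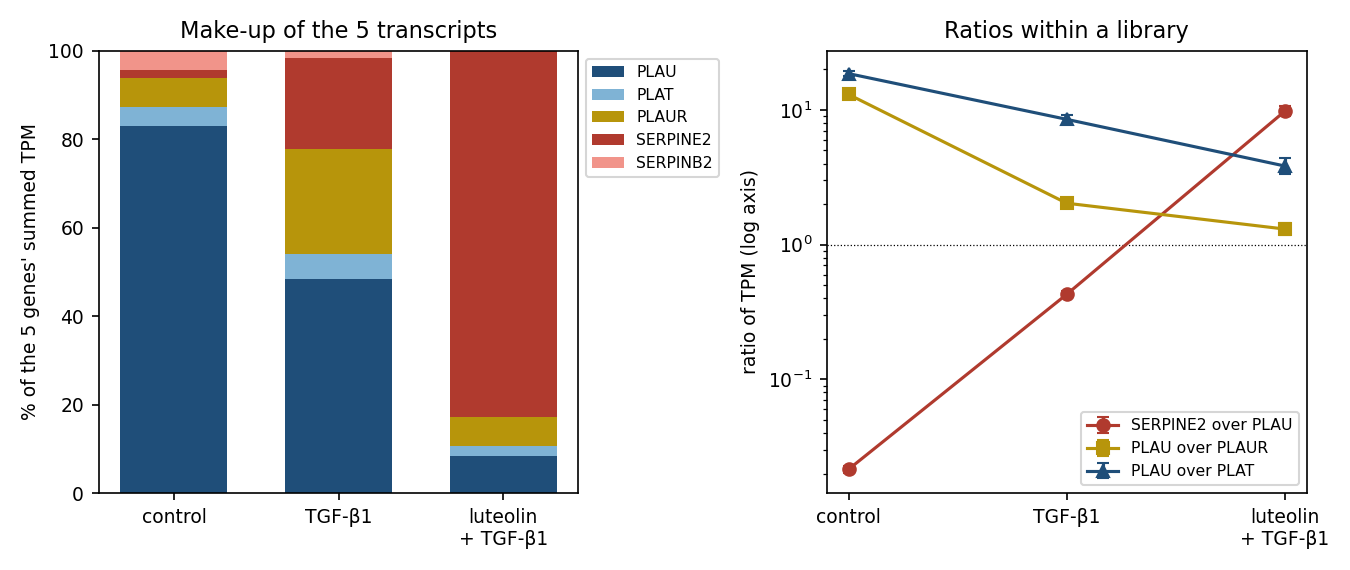
The left panel shows the share of each gene in the summed TPM of the 5 genes, per library; the right panel shows 3 TPM ratios within a library on a log axis, with exact 95% intervals for counting error. PLAU made up 82.9% of the sum in control, 48.3% with TGF-β1 and 8.47% after the combined treatment, and SERPINE2 1.78%, 20.7% and 82.7%.

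AP-1 and ETS proteins are transcription factors that act on activator genes in many cells, and 17 of their genes were looked up, of which all were eligible in the first 2 comparisons. With TGF-β1, 4 were higher and 0 lower, beside 3.7% and 6.67% of all eligible genes, with JUNB at a log2 ratio of 1.87 and ETV4 at 1.54. FOSB (10 and 19 counts) and FOS (18 and 32 counts) were called on few counts. With luteolin + TGF-β1 against TGF-β1, 1 was higher and 6 were lower, beside 12.5% and 14.8% of all eligible genes. Among the lower, BATF3 had -3.71 (57 and 4 counts), ETV4 -2.75, ETV1 -2.20, FOSB -1.54 (19 and 6 counts), and FOSL1 -1.19. FOSB is not called with upper-quartile factors. FOSL1 had the highest mean TPM of the list over the 3 libraries, at 456, 363 and 138 TPM, but in the combined treatment JUNB, at 254 TPM, was above it. The median of the list was 0.19 and -0.55 in the 2 comparisons, beside -0.01 and -0.04 over all eligible genes.

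Plasminogen itself, the substrate of both activators, was not detectable at this depth: PLG had 0 counts in each library, which allows up to 3 counts, or 0.168, 0.205 and 0.193 CPM by total counts. Of 9 genes for plasminogen and its docking sites, 7 were eligible. The first step had 0 higher and 1 lower, and the second 1 of each, beside 10.4% and 27.3% of all eligible genes called. Nothing is read from these counts. ENO1, a glycolytic enzyme that also binds plasminogen at the cell surface, had log2 ratios of 0.29 and 0.23 at the first and second step, and was not called. HMGB1, a chromatin protein that can be secreted, was lower at the second step at -1.68, and the histone gene H2BC5 was called at both, at -1.46 and 4.67, on counts of 22, 6 and 140.

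Of 10 other inhibitors of plasmin, activators and thrombin that were looked up, 4 were eligible, with 0 higher and 2 lower with TGF-β1 and 3 higher and 1 lower at the second step, beside 10.4% and 27.3% of all eligible genes called at these steps. TFPI, an inhibitor of tissue factor, was lower at both steps, at -2.34 and -1.28. TFPI2, which inhibits plasmin, had -0.48 and then rose by 2.29, and the broad protease trap A2M fell by 1.15 and then rose by 2.103, both on the log2 scale. SERPING1, the C1 inhibitor gene, was higher at the second step at 1.23. Of 12 other clade B serpins, relatives of SERPINB2, 5 were eligible. SERPINB9, an inhibitor of granzyme B, was lower at both steps, at -2.01 and -2.64, on counts of 182, 34 and 5. SERPINB1 was lower at the first step, at -1.32, and had 0.14 at the second, and SERPINB7 was called at neither, at 0.02 and -0.45. Of 9 serpins of other clades, 2 were eligible and 0 were called at either step, with SERPINH1, the collagen chaperone gene, at 0.60 and 0.56.

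Receptors that clear or hold activator complexes, integrins included, had 14 of 19 members eligible. With TGF-β1, 2 were higher and 0 lower, beside 3.7% and 6.67% of all eligible genes, ITGB3 at 1.54 and MRC2, the gene of a collagen receptor that associates with the urokinase receptor, at 1.02. With luteolin + TGF-β1 against TGF-β1, 5 were higher and 0 lower, beside 12.5% and 14.8% of all eligible genes, with VLDLR at 2.21, ITGB3 at 1.76, ITGA5 at 1.07 and MRC2 at 1.04. These counts depend on scaling: with total counts 1 was higher at the first step, and 2 were higher and 1 lower at the second. There ITGA5 had 0.85, MRC2 0.83 and LRP1, which was called at 1.02 with TMM, 0.80. The lower gene was EGFR, at -1.21 with total counts and at -0.99 with TMM, where it was not called. With upper-quartile factors 10 of 15 eligible genes were higher at the second step. ITGB1, with the highest mean TPM of the list, had 0.57 and 0.83. The medians were 0.45 and 0.86.

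Among the thrombin and coagulation genes, 7 of 10 were eligible. The first step had 1 higher and 2 lower, and the second 2 higher and 3 lower. Of all eligible genes, 10.4% and 27.3% were called at these steps. With total counts 1 was higher at the second step, where GAS6 had 0.80 in place of 1.02 with TMM. F3, tissue factor, was lower with TGF-β1 at -1.38 and had 0.28 at the second step. F2RL1, a protease-activated receptor gene, was higher at the first step at 1.23 and lower at the second at -2.81, and F2RL2 and PROCR were lower at the second at -1.93 and -1.38. PROS1 had -1.16 and 1.28, both called, on counts of 104, 35 and 78. Of zymogens and latent factors that plasmin or urokinase can cleave, 11 of 14 were eligible at each step, with 3 higher and 2 lower at the first and 4 higher and 1 lower at the second, beside 10.4% and 27.3% of all eligible genes called. With total counts these were 2 higher and 3 lower, then 3 higher and 1 lower, and with upper-quartile factors 6 were higher at the second step. HGF, whose precursor urokinase can cut, was lower at both, at -4.05 and -1.33. LTBP2 was higher at the first step at 2.31, beside MMP14 at 1.33, and PDGFD was lower at -4.30. LTBP2 was higher at the second step too, at 1.17 with TMM, but was not called there with total counts, at 0.95. MMP10 at 3.33 (5 and 46 counts), MMP3 at 2.96 and MST1 at 2.17 were higher at the second step, and CCN1, with the highest mean TPM of the list, had 0.49 and 0.65. Of 10 other serine proteases, 3 were eligible, and HTRA1 had -0.41 and then 2.06, the latter called. Over the 110 related genes, 19 of 70 eligible genes were called at the first step (27.1%, beside 10.4% of all eligible genes) and 30 of 70 at the second (42.9%, beside 27.3%). The lists were chosen with earlier results of these data known, and nothing is read from these shares.

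**Figure D5:**
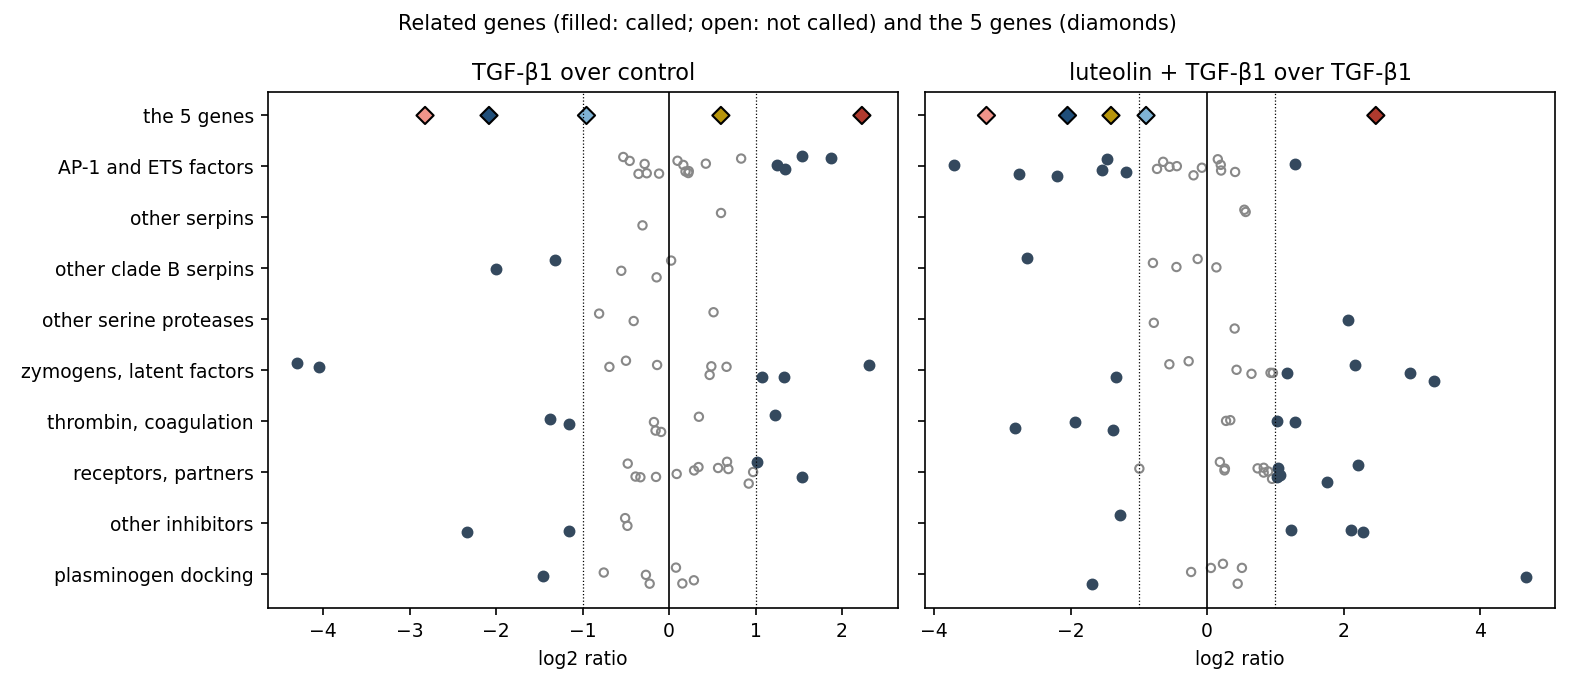
Log2 ratios of the eligible related genes are drawn by list for both steps, filled where called and open where not, with the 5 genes as diamonds in the top row and dotted lines at 2-fold. Vertical scatter within a row only separates points. The 5 genes ran from -2.82 to 2.23 at the first step and from -3.23 to 2.47 at the second.

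Genes next to each member on its chromosome were compared with it, taking the nearest 3 protein-coding genes on each side by RefSeq start. Of the 6 around PLAU, 5 were eligible and 0 were called with TGF-β1, beside 10.4% of all eligible genes called, so that nothing is read from this count. CAMK2G had a log2 ratio of -0.12 and VCL, the vinculin gene, -0.04. At the second step ADK was lower at -1.62 and VCL had 0.49. Around SERPINB2, SERPINB3, SERPINB11 and SERPINB10 had 0 counts in every library. SERPINB7 had 729, 556 and 373 counts, with log2 ratios of 0.02 and -0.45. SERPINB8 had 788, 403 and 213 counts, with log2 ratios of -0.55 and -0.79, and neither gene was called at either step. With total counts SERPINB8 is called lower at the second, at -1.01. For luteolin + TGF-β1 over control SERPINB8 was lower at -1.35 (interval -1.57 to -1.13), and SERPINB7 had -0.43 and was not called. HMSD, between SERPINB10 and SERPINB8, had 25, 7 and 0 counts and was called lower at the first step, at -1.42. Around SERPINE2, CUL3 had -0.18 and -0.23 and MRPL44 -0.17 and -0.04, while AP1S3 was lower and then higher, at -2.13 and 1.13, on counts of 70, 12 and 24, the second of which is not called with total counts, at 0.91. Around PLAUR, KCNN4 was called higher and then lower on counts of 1, 15 and 3, and at neither step with upper-quartile factors. Around PLAT, ANK1 was called lower at the first step, on counts of 52 and 2, and was not called at the second.

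Genes with the most similar pattern were found as the smallest distance over the pair of log2 ratios, among 9668 genes with at least 10 CPM in 1 of the 3 mRNA libraries. For SERPINE2 these were TSPAN2 at a distance of 0.39, LINC02593 at 0.49, ACTA2 at 0.55 and ADAMTS10 at 0.69, and 2 genes lay within 0.5. ACTA2, the smooth muscle actin gene, had log2 ratios of 1.71 and 2.63 on counts of 3255, 7965 and 45165. TSPAN2, LINC02593 and ADAMTS10 had only 34, 21 and 36 counts in control, so this order by distance is uncertain from counting error. For PLAU they were CDK15 at 0.20, IFIT1 at 0.40, CARD16 at 0.43 and BMPER at 0.46, with 5 genes within 0.5. In the luteolin + TGF-β1 library these had only 16, 12, 19 and 15 counts, so their order by distance is uncertain from counting error alone. For SERPINB2 SAMD12 was nearest at 0.17, on counts of 212, 23 and 2, followed by TNFRSF1B at 0.57, MYPN at 0.58 and NCKAP5 at 0.60. TNFRSF1B, MYPN and NCKAP5 had 6, 13 and 10 counts in the luteolin + TGF-β1 library. PLAUR and PLAT had more neighbours, 395 and 141 within 0.5, led by WRAP53 at 0.04, HCFC1 at 0.04, GNPNAT1 at 0.05 and PLCXD1 at 0.06 for PLAUR, and by HSPA2 at 0.03, SSX2IP at 0.06, GK at 0.06 and AIFM2 at 0.09 for PLAT. Over 3 libraries such distances describe these libraries and no more.

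The small RNA libraries, with 22277636, 7533041 and 14044332 counts, were read for miR-193b-3p and miR-23b-3p, which have been reported to act on PLAU mRNA in other human cells, and for miR-193a-3p, which has the seed of miR-193b-3p. Their mature sequences from RefSeq on GRCh38.p14 are given with the seed, bases 2 to 8, in capitals. The miR-193 arms share the seed ACUGGCC, and miR-23b-3p has UCACAUU.
hsa-miR-193b-3p: aACUGGCCcucaaagucccgcu
hsa-miR-193a-3p: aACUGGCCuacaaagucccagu
hsa-miR-23b-3p: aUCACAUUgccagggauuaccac

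miR-193b-3p had 265 counts in control, 227 after TGF-β1 and 687 after the combined treatment, or 11.9, 28.0 and 52.6 CPM. Its order over the libraries was the reverse of that of PLAU. The log2 ratio was 1.23 for TGF-β1 over control (interval 0.972 to 1.496) and is called, beside 51.7% of 358 miRNAs with at least 10 CPM in a library compared (14.5% higher and 37.2% lower). For luteolin + TGF-β1 over TGF-β1 it was 0.91 (interval 0.69 to 1.13) and is not called. For luteolin + TGF-β1 over control it was 2.15 and is called, beside 39% of 354 miRNAs (12.1% higher and 26.8% lower). miR-193a-3p had 23, 0 and 9 counts and was at or under 1.03 CPM. miR-23b-3p had 164353, 21961 and 165563 counts, or 7379, 2708 and 12686 CPM. It was 2.72-fold lower with TGF-β1 than in control and 4.68-fold higher after the combined treatment than after TGF-β1 alone, the latter beside 50.9% of 342 miRNAs called (33.6% higher and 17.3% lower). Against control the combined treatment had a log2 ratio of 0.78, which is not called, and 1.09 with upper-quartile factors. PLAU was lower at the second step as well, so the order of miR-23b-3p over the libraries followed neither that of PLAU nor its reverse. Any action of these miRNAs on PLAU was not tested.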

How the data were processed

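Libraries of MRC5 cells were made from TRIzol-extracted RNA with the TruSeq Stranded mRNA and Small RNA kits of Illumina, per the labels' protocols. The authors deposited raw counts for each Ensembl gene and each mature miRNA, per the file headers. TPM values were also deposited by the authors and were used to set genes beside each other. The authors' deposited table also holds log2 fold changes and p-values between single libraries, which were not used. The submitters' processing notes name fastp 0.20.0, HISAT2 2.1.0, featureCounts 2.0.1, edgeR 3.36.0 and hg38, without roles. For the counting, strandedness is not given in the sources used here, and neither is the tool that aligned miRNA reads.

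Counts were scaled by total and TMM factor (edgeR 4.0.16), over the 3 libraries of each assay. Ratios have Clopper-Pearson intervals conditional on the sum of both counts (SciPy 1.17.1), and ratios of ratios have exact conditional intervals. With 1 library per group no test between groups was possible, and a gene was called by size: 2-fold or more, with the interval excluding equality. A gene was eligible at 1 CPM, and a miRNA at 10 CPM, in a library compared. A count of 0 was given the floor of 3 counts. Reads were amplified by PCR and carry no molecular identifiers, so intervals and floors cover counting error only. The calling script was run on simulated Poisson counts without variation between cultures, with planted changes all past 2-fold. Such a run checks the code only and cannot show whether calls would repeat in other cultures.

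Members, lists and rules were chosen with earlier results of these data known. Named related genes are, per list and step, up to 4 called genes with the largest ratios and the one with the highest mean TPM. A few others are named because scaling changed their call. Genomic neighbours, overlapping genes and genes with a LY6/PLAUR domain were added after the values were seen. RefSeq promoter windows were read for 4 of the 5 genes, and RefSeq mature sequences matched all 3 miRNAs.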

Additional observations from a re-analysis of the deposited data

How the results depend on the processing

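No paired analysis was possible because each group had 1 library, and for the same reason no replicate could be left out. Of 96 alternative values, 62 stayed within counting error or within 1.5 times the main count, and 34 moved. A called direction was reversed by 0 of them, and nothing is read from this. The scaling shifts given next are too small to turn a 2-fold ratio around, and counts of called genes have no direction. Scaling by total counts shifted every log2 ratio by -0.12 for TGF-β1 over control, -0.22 for luteolin + TGF-β1 over TGF-β1 and -0.34 for luteolin + TGF-β1 over control, and upper-quartile factors shifted the last 2 by 0.17 each. With total counts, SERPINE2, PLAU, PLAUR and PLAT had 2.11, -2.21, 0.48 and -1.08 for TGF-β1 over control, 2.25, -2.26, -1.63 and -1.11 for luteolin + TGF-β1 over TGF-β1, and 4.36, -4.47, -1.15 and -2.19 for luteolin + TGF-β1 over control. With upper-quartile factors, SERPINE2, PLAU and PLAUR had 2.64, -1.87 and -1.23 for luteolin + TGF-β1 over TGF-β1, and with PLAT 4.88, -3.95, -0.63 and -1.67 for luteolin + TGF-β1 over control. From the deposited TPM (log2 of TPM + 0.1), the same 4 genes had 2.26, -2.25, -1.62 and -1.10 for luteolin + TGF-β1 over TGF-β1, and 4.44, -4.38, -1.06 and -2.10 for luteolin + TGF-β1 over control. PLAT at each step and PLAUR against control therefore lie on either side of 2-fold with scaling. The calls of SERPINE2, PLAU and SERPINB2 in the 3 comparisons, and of PLAUR at the second step, held under the 4 scalings. Called genes numbered 1392, 3737 and 4093 in the 3 comparisons, 806, 2449 and 2711 when eligible at 5 CPM, and 2765, 6246 and 6457 at 1.5-fold, where fewer genes or a lower threshold sets the difference. Related genes called with TGF-β1 numbered 19, and 29 at 1.5-fold. The share of called genes that were higher was 45.7% with TMM for luteolin + TGF-β1 over TGF-β1, 30.8% with total counts and 58.1% with upper-quartile factors, and for luteolin + TGF-β1 over control 42.2%, 23.4% and 52.8%. For SERPINB2 depth limits the last value, which rests on 8 counts.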

Other observations

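Genes that share the LY6/PLAUR domain named in their deposited description were looked up after the values of PLAUR were seen. Of 12 such genes 7 had a count and 3 were eligible. None of the 3 was called with TGF-β1, beside 10.4% of all eligible genes. All 3 were lower after the combined treatment than after TGF-β1 alone. LYPD1 had 2291 counts in control, 1591 after TGF-β1 and 460 after the combined treatment, with a log2 ratio of -1.66 at the second step (interval -1.82 to -1.51). LYPD6, a modulator of Wnt signalling, had 169, 87 and 16 counts and -2.32 (interval -3.19 to -1.54). PINLYP had 34, 20 and 4 counts and -2.20 (interval -4.20 to -0.62). LYPD3 had 15, 1 and 0 counts and was not eligible in any comparison. PLAUR had -1.41 at the same step, and 14.8% of all eligible genes were called lower there. With 3 eligible genes, looked up after the values of PLAUR were known, nothing is read from these counts.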
